A study of Mus musculus with 14 samples.

Results

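The 10 genes followed here carry iron into, through and out of cells, store it, sense it or release it from heme. They were measured in the colon of mice with and without the glucocorticoid receptor (GR) in the intestinal epithelium. They are Tfr2, Hamp, Tfrc, Slc11a2, Cybrd1, Slc40a1, Heph, Fth1, Ftl1 and Hmox1. A probe was taken as a member when its RefSeq accession belonged to one of these genes, which gave 10 genes of 19096 named on the array and 15 probes of 41174. Every one of the 10 genes was measurable, through 13 probes that were well above background on at least 3 of 14 arrays. The other 2 probes, both for Cybrd1, were above background on no array. Tfr2 was chosen by measured values, the log2 difference between DSS and water, which was smaller in mice without epithelial GR. Its values are therefore a description with no test.

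RNA came from whole colon of female C57BL/6 mice aged 4 to 6 months, 1 mouse per 1-colour Agilent array. Flox mice carry loxP-flanked copies of the GR gene Nr3c1 and keep it. GR iKO mice carry the same alleles and Villin-cre, which removes GR in intestinal epithelial cells from development on, and not in immune, muscle or stromal cells. Mice of each genotype drank regular water (Flox_ctrl and GR iKO_ctrl, n = 4 each) or 2.5% dextran sulfate sodium (DSS), a detergent-like polymer that injures the colon lining, for 7 days (Flox_DSS and GR iKO_DSS, n = 3 each). The 4 probes for Nr3c1 read 47.6 to 57.3% of the Flox level in GR iKO mice on water and 55.2 to 75.7% on DSS, in tissue that also holds cells untouched by Villin-cre.

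Levels are log2 of the signal over the 75th percentile of the same array, so they compare one gene between mice and not one gene with another. Differences are on the same log2 scale and were called at a limma adjusted p under 0.05 over all 29523 probes tested. Intervals are 95% intervals from the same fits. The 75th percentile itself was 707 to 1003 intensity units on water, 262 to 675 in Flox_DSS and 493 to 713 in GR iKO_DSS. Scaling to the 8 spike-in transcripts added to each sample instead lowered every DSS difference by 2.36 in Flox and by 0.96 in GR iKO, and moved the median of all probes from −0.09 to −2.45 and from −0.02 to −0.98. All changes are therefore relative to the bulk of the probes. For the iron genes listed at the start, where the spike-in scale turned the direction of a DSS difference, its value is given with it. For other genes the turn is marked for some only. Any log2 rise with DSS under 2.36 in Flox or under 0.96 in GR iKO is below 0 on the spike-in scale, marked or not.

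Iron enters cells as transferrin bound to the transferrin receptor Tfrc, or as ferrous iron through the metal transporter Slc11a2 (DMT1) after reduction by enzymes such as Cybrd1. It leaves through ferroportin, Slc40a1, helped by the ferroxidase hephaestin, Heph, and the liver hormone hepcidin, Hamp, closes that exit. Ferritin, built of Fth1 and Ftl1 chains, stores iron, and heme oxygenase 1, Hmox1, frees it from heme. Tfr2 senses transferrin-bound iron and acts on hepcidin in hepatocytes. In the gut these genes are known from iron absorption in the duodenum, and in inflammation from the withholding of iron from microbes.

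Promoter sequence was read for the 2 members of the sensing branch, since Tfr2 had the widest genotype difference on DSS of the list on the percentile scale (−1.09, against 0.14 on the spike-in scale) and Hamp is the hormone gene it acts on. Both stretches are the 120 bases that end just before a listed transcription start, 5′ to 3′ on the gene's strand, from RefSeq on GRCm38.p6. The Tfr2 stretch is chr5:137569720-137569839 on the plus strand, before the first of 3 listed starts, and capitals mark the hypoxia response core ACGTG and the GC boxes GGGCGG. The Hamp stretch is chr7:30944030-30944149 on the minus strand, and capitals mark a bone morphogenetic protein (BMP) response element, GGCGCC, and a STAT site, TTCNNNGAA.
Tfr2: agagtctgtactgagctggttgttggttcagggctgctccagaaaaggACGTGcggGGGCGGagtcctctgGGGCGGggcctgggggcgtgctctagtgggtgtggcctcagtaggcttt
Hamp: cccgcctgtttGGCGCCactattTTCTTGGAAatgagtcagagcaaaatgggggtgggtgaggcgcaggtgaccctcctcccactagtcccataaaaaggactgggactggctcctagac

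The 250 bases before each start were searched on both strands in the 10 windows listed for 6 members (Tfr2, Tfrc, Hamp, Cybrd1, Fth1 and Ftl1). The full glucocorticoid response element, AGAACA, 3 bases and TGTTCT, was in 0 of the 10 windows and in 0.00913% of all 32851 windows. The shorter TGTTCT that ends it was also in 0 of 10, against 16.1% of all windows, and the antioxidant response element TGACNNNGC in 0 of 10, against 10.2%. ACGTG was in 3 of the 10 windows, 2 of Tfr2 and 1 of Tfrc, and in 16.6% of all. GGCGCC was in 3, of Hamp, Cybrd1 and Tfrc, and in 9.59% of all. In the Hamp window it lies 109 to 104 bases before the start, with the STAT site 97 to 89 bases before it, a motif found in 7.02% of all windows. GC boxes were in 5 of the 10 windows and in 32.7% of all. These matches describe letters, and a window without a match says nothing about the factor.

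Tfr2 was highest in Flox colon on DSS, lower in GR iKO colon on DSS and lowest in both water groups. Its log2 levels were −5.15, −5.17, −5.38 and −5.36 in Flox_ctrl, and −3.36, −3.25 and −2.87 in Flox_DSS. In GR iKO_ctrl they were −4.80, −4.74, −5.16 and −4.92, and in GR iKO_DSS −4.25, −4.27 and −4.22. Every Flox_DSS mouse stood above every GR iKO_DSS mouse, every DSS mouse stood above every water mouse, and the water groups overlapped. The probe was well above background on all 14 arrays, yet dim. Its unscaled signal was 17.0 to 27.9 intensity units in Flox_ctrl and 35.9 to 70.8 in Flox_DSS. It was 22.9 to 34.6 in GR iKO_ctrl and 26.4 to 37.6 in GR iKO_DSS. Before scaling, the DSS groups thus overlapped, as did DSS and water mice in GR iKO, and their separation holds on the percentile scale.

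The Tfr2 difference between DSS and water was 2.11 (SE 0.14), or 4.3-fold, in Flox, and 0.66 (SE 0.14), or 1.6-fold, in GR iKO. On the spike-in scale these were −0.26 and −0.30, and after normexp background correction and quantile normalization 0.68 and 0.16. On DSS the GR iKO mean was 1.09 below the Flox mean, which is 0.14 on the spike-in scale, and on water the GR iKO mean was 0.36 above it (SE 0.11). The GR iKO response less the Flox response was −1.45 on the percentile scale, −0.04 on the spike-in scale and −0.52 after normexp with quantile normalization. These values are the ground on which Tfr2 was chosen, so they carry no test and no interval is given for them. Compared within each array slide, Flox_DSS was above Flox_ctrl on 3 of 3 slides (1.79 to 2.50), GR iKO_DSS above GR iKO_ctrl on 3 of 3 (0.55 to 0.89), and GR iKO_DSS below Flox_DSS on the 2 slides that held both (−1.36 to −0.91). In whole tissue, fewer cells of a type and less RNA per cell cannot be told apart, here and for every gene that follows.

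**Figure D1:**
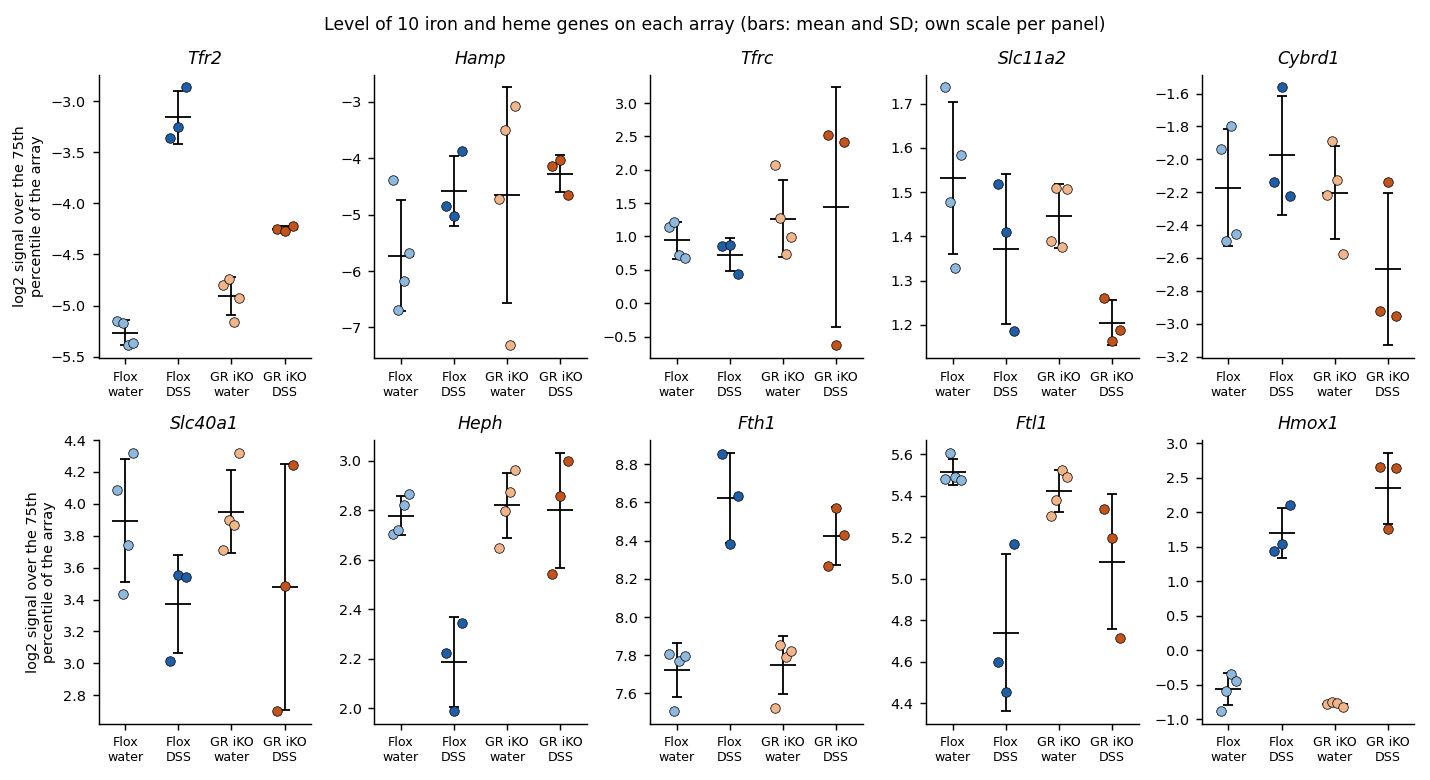
Level of each of the 10 genes in every mouse, as log2 of the signal over the 75th percentile of its array, with 1 point per array, the group mean and SD, and a separate vertical scale for each gene. Tfr2 in Flox_DSS lies at −3.36 to −2.87, above all other mice, which on the spike-in scale becomes a difference of −0.26 from Flox_ctrl. Hmox1 and Fth1 lie higher in both DSS groups than in both water groups.

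The genes whose levels ran most like Tfr2 over the 14 arrays, of 15464 compared, were Cfi (Pearson r = 0.967), Krt5 (0.967), Cacnb4 (0.965), Nexn (0.965) and Cldn10 (0.965). Cfi encodes complement factor I, Krt5 a basal keratin of stratified epithelia, Cacnb4 a calcium channel subunit, Nexn an actin-binding protein of muscle and Cldn10 a tight junction claudin. All 5 shared the order of Tfr2 on DSS, which follows largely from their being picked by r. Nexn, for example, had a mean level of 1.07 ± 0.11 in Flox_ctrl (SD, n = 4), 2.80 ± 0.11 in Flox_DSS (n = 3), 1.14 ± 0.08 in GR iKO_ctrl (n = 4) and 1.82 ± 0.15 in GR iKO_DSS (n = 3). Cldn10 went from −3.41 ± 0.31 to −0.04 ± 0.51 in Flox and from −3.26 ± 0.33 to −1.89 ± 0.56 in GR iKO. The arrays fall into water and DSS mice, so r is a description and carries no test.

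Markers of other cell types were set beside Tfr2. The 8 smooth muscle markers, all well above background in every group, had a mean log2 level 1.20 to 1.76 above the water arrays in Flox_DSS and −0.53 to 0.60 in GR iKO_DSS. In Flox 8 of 8 were called higher with DSS, against 27.4% of all genes, and 1 of 8 in GR iKO, against 24.5%. Called lower were 26.9% of all genes in Flox and 22.6% in GR iKO, and the marker counts below stand against these shares. The summed level of the smooth muscle markers was 1167 to 2001 in Flox_DSS, 401 to 891 in GR iKO_DSS and 451 to 752 on water. With spike-in scaling only 1 of those 8, Smtn, stayed above 0 in Flox. Hepatocyte markers, of interest because the liver is the main site of Tfr2, had a mean log2 level 2.16 to 3.59 above water in Flox_DSS and −0.04 to 2.54 in GR iKO_DSS. Of 7, 6 were called higher and 1 lower in Flox, and 4 higher and 1 lower in GR iKO, with a summed level of 8.64 to 20.5 and 11.99 to 13.7 against 1.70 to 2.82 on water. With spike-in scaling 5 of the 6 and 4 of the 4 that were higher stayed above 0. Apoa1 was above background on no water array and Ttr, the marker that fell, on no DSS array, and Fabp1 of this list is also made by gut epithelium. Adipocyte markers ran at 0.06 to 1.68 in Flox_DSS and −2.51 to 0.83 in GR iKO_DSS, with 2 of 7 called higher in Flox and 3 of 7 lower in GR iKO (summed 93.6 to 222 and 24.5 to 139, against 34.8 to 87.1 on water). Smooth muscle markers kept the 2 DSS groups apart, as Tfr2 did. So did skeletal muscle markers, at 0.10 to 0.55 in Flox_DSS and −0.91 to −0.04 in GR iKO_DSS. Their 7 genes went both ways, with 2 called higher and 1 lower in Flox (differences of −1.10 to 2.07). In GR iKO 0 were called higher and 1 lower (−3.52 to 0.27). Neutrophil markers kept the 2 DSS groups apart the other way, at 3.92 to 4.77 in Flox_DSS and 5.73 to 7.65 in GR iKO_DSS. Hepatocyte and adipocyte markers overlapped between the 2 DSS groups. Of all genes, 24.3% had DSS groups that did not overlap between genotypes. The part of these cell types in the Tfr2 values was not tested.

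**Figure D2:**
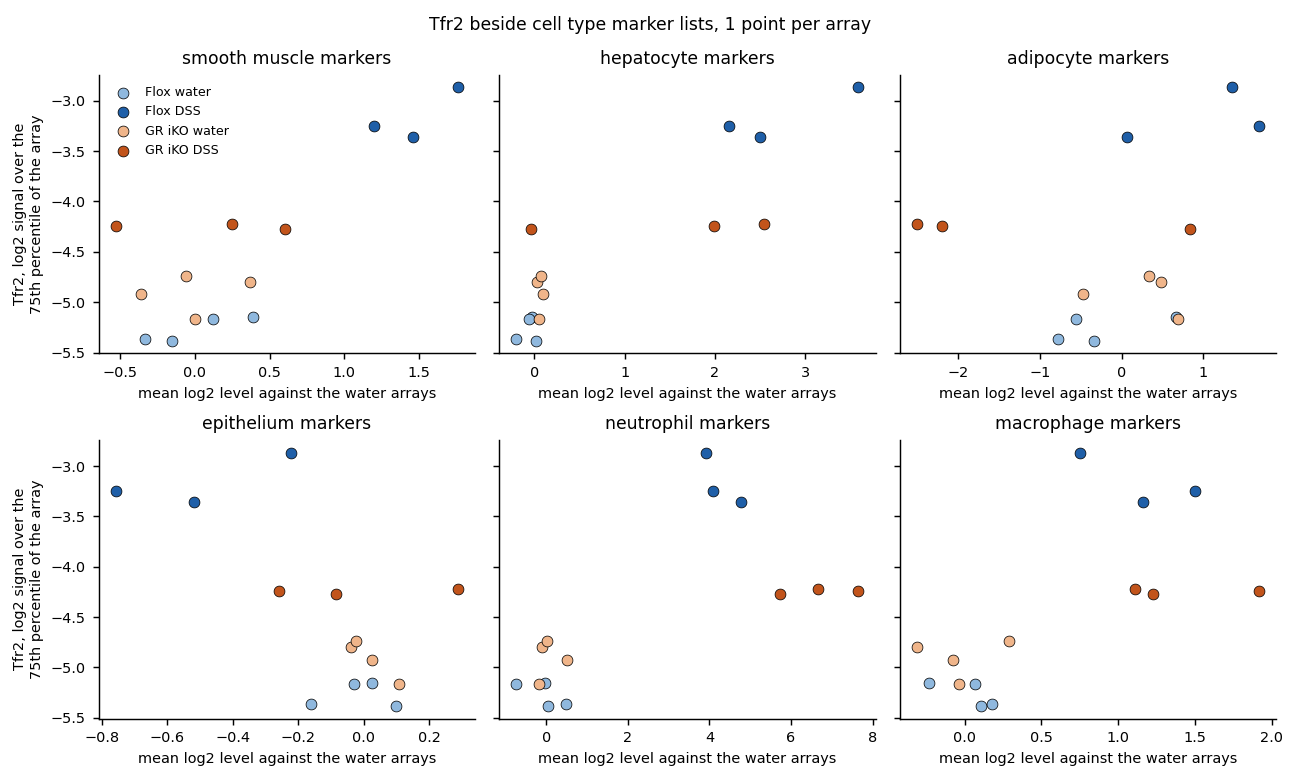
Tfr2 level (log2 over the 75th percentile) against the mean log2 level of 6 sets of cell type markers relative to the water arrays, 1 point per array. Flox_DSS mice have both the highest Tfr2 and the highest smooth muscle marker level, 1.20 to 1.76 above water on the percentile scale, and GR iKO_DSS mice lie near the water mice on that marker axis.

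Hamp, the hepcidin gene, was dim and scattered. Its levels were −4.38, −6.68, −6.17 and −5.67 in Flox_ctrl, where only replicate 1 was well above background, and −4.84, −5.03 and −3.86 in Flox_DSS, all above it. They were −4.72, −3.50, −7.32 and −3.08 in GR iKO_ctrl, above background in all but replicate 3, and −4.14, −4.03 and −4.65 in GR iKO_DSS, all above it. All 4 groups overlapped their neighbours in order. The DSS difference was 1.15 (SE 0.84, limma adjusted p = 0.272) in Flox and 0.38 (SE 0.84, limma adjusted p = 0.740) in GR iKO, and their difference was −0.77 with an interval of −3.36 to 1.83. On the spike-in scale these were −1.21, −0.57 and 0.64.

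Among the 3 uptake genes 0 were called by limma in any comparison, and 0 had an unadjusted p under 0.05. Of all genes 54.3% were called with DSS in Flox and 47.1% in GR iKO. Tfrc, the receptor that takes up transferrin-bound iron, was at 1.14, 1.22, 0.72 and 0.68 in Flox_ctrl and 0.86, 0.87 and 0.44 in Flox_DSS. In GR iKO_ctrl it was at 2.07, 1.28, 0.74 and 0.98, and in GR iKO_DSS at 2.53, −0.63 and 2.42. The GR iKO_DSS group thus held both the highest mice and the lowest mouse of the study. That mouse, replicate 3, also stood apart in hepatocyte markers (−0.04 against 1.99 and 2.54 in the others) and in adipocyte markers (0.83 against −2.51 and −2.20). With all mice the Tfrc difference was −0.22 in Flox (interval −1.55 to 1.12, limma adjusted p = 0.790) and 0.17 in GR iKO (−1.16 to 1.50, limma adjusted p = 0.844, and −0.79 on the spike-in scale). Without that mouse the GR iKO value was 1.21 (limma adjusted p = 0.00962).

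Slc11a2, the DMT1 importer, differed little. Its brightest probe read 1.74, 1.48, 1.33 and 1.58 in Flox_ctrl, 1.52, 1.41 and 1.19 in Flox_DSS, 1.39, 1.51, 1.38 and 1.51 in GR iKO_ctrl, and 1.26, 1.16 and 1.19 in GR iKO_DSS. The GR iKO_DSS mice were all below the GR iKO_ctrl mice, by a mean of 0.24 (interval −0.50 to 0.02, limma adjusted p = 0.117), and in Flox the difference was −0.16 (−0.42 to 0.10, limma adjusted p = 0.273). Its 2 dimmer probes gave 0.58 (limma adjusted p = 0.135) and 0.01 (limma adjusted p = 0.970) in GR iKO, neither called, or −0.37 and −0.95 on the spike-in scale. The spike-in scale turned the genotype difference in the response from −0.08 to 1.32.

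Cybrd1, the duodenal ferric reductase, was measured by 1 of its 3 probes. It was at −1.94, −2.50, −1.80 and −2.45 in Flox_ctrl, −2.14, −1.56 and −2.23 in Flox_DSS, −2.22, −1.89, −2.13 and −2.57 in GR iKO_ctrl and −2.92, −2.14 and −2.95 in GR iKO_DSS. Of the 3 GR iKO_DSS mice, 2 were below all other mice, and the groups overlapped. The DSS difference was 0.20 in Flox (interval −0.37 to 0.76, limma adjusted p = 0.553, and −2.17 on the spike-in scale) and −0.47 in GR iKO (−1.03 to 0.10, limma adjusted p = 0.167).

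Of the 2 export genes, 1 was called with DSS in Flox, and the 2 were not tested against each other. Slc40a1, the only known iron exporter of mammalian cells, was at 4.09, 3.43, 3.74 and 4.32 in Flox_ctrl and 3.02, 3.56 and 3.54 in Flox_DSS. It was at 3.71, 3.90, 3.87 and 4.32 in GR iKO_ctrl and 2.70, 3.49 and 4.24 in GR iKO_DSS. Means on DSS were lower in both genotypes, but the groups overlapped and neither difference was called: −0.52 in Flox (interval −1.22 to 0.17, limma adjusted p = 0.189) and −0.47 in GR iKO (−1.17 to 0.22, limma adjusted p = 0.254). The GR iKO value was −0.08 without GR iKO_DSS replicate 1 and −0.85 (limma adjusted p = 0.0357) without replicate 4. The difference of the responses was 0.05, with an interval of −0.93 to 1.04.

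Heph, the membrane ferroxidase that works beside the exporter, fell with DSS in Flox colon. Its levels were 2.70, 2.72, 2.82 and 2.86 in Flox_ctrl and 2.22, 1.99 and 2.35 in Flox_DSS. They were 2.65, 2.79, 2.87 and 2.96 in GR iKO_ctrl and 2.54, 2.86 and 3.00 in GR iKO_DSS. The 3 Flox_DSS mice were below all 11 other mice, while the other 3 groups overlapped. Heph fell by 0.59 in Flox (SE 0.13, limma adjusted p = 0.00261), or 1.51-fold, and the GR iKO value was −0.02 (interval −0.31 to 0.27, limma adjusted p = 0.916). The difference of the 2 responses was 0.57 (interval 0.16 to 0.98) and was not called (limma adjusted p = 0.135), nor was the GR iKO minus Flox difference on DSS of 0.61 (interval 0.12 to 1.11, limma adjusted p = 0.248).

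The second Heph probe, far dimmer and above background in 1 of 3 Flox_DSS mice, gave −0.84 in Flox (SE 0.23, limma adjusted p = 0.00911) and 0.18 in GR iKO (limma adjusted p = 0.559, and −0.78 on the spike-in scale). Both probes ran the same way in Flox. Within slides, the brighter probe was lower on DSS on 3 of 3 slides in Flox (−0.73 to −0.48), and on DSS it was higher in GR iKO on 2 of 2 (0.64 and 0.65). Epithelial markers, all 10 above background in every group, had a mean log2 level of −0.76 to −0.22 against water in Flox_DSS and −0.26 to 0.29 in GR iKO_DSS. In Flox 4 of 10 were called lower and 1 higher (26.9% and 27.4% of all genes were), and in GR iKO 1 of 10 each way (22.6% and 24.5%). Colonocyte markers were at −1.61 to −0.06 in Flox_DSS and −1.69 to −0.41 in GR iKO_DSS. Their part in the Heph value was not tested.

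On the percentile scale the 2 ferritin chains went in opposite directions in Flox, and in GR iKO only Fth1 was called. On the spike-in scale both were below 0 in both genotypes, with Ftl1 at −3.14 in Flox and −1.30 in GR iKO. Fth1, the heavy chain that oxidises iron for storage, was at 7.81, 7.51, 7.77 and 7.80 in Flox_ctrl and 8.86, 8.38 and 8.63 in Flox_DSS. It was at 7.52, 7.85, 7.79 and 7.82 in GR iKO_ctrl and 8.27, 8.57 and 8.43 in GR iKO_DSS. All 6 DSS mice were above all 8 water mice. Fth1 rose by 0.90 in Flox (SE 0.14, limma adjusted p = 0.00021), or 1.87-fold, and by 0.68 in GR iKO (SE 0.14, limma adjusted p = 0.00207), or 1.60-fold, which on the spike-in scale are −1.46 and −0.28. The Flox value was 0.45 (limma adjusted p = 0.0610) after quantile normalization and 0.46 (limma adjusted p = 0.0584) in the deposited log2 table, and no longer called in either. The 2 responses differed by −0.23 (interval −0.66 to 0.20, limma adjusted p = 0.577), or 1.18 on the spike-in scale and 0.23 after quantile normalization.

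Ftl1, the light chain, was at 5.48, 5.61, 5.49 and 5.48 in Flox_ctrl and 4.60, 4.46 and 5.17 in Flox_DSS. It was at 5.31, 5.38, 5.52 and 5.49 in GR iKO_ctrl and 5.34, 5.20 and 4.72 in GR iKO_DSS. The Flox groups did not overlap, and the GR iKO groups did. Ftl1 fell by 0.77 in Flox (SE 0.18, limma adjusted p = 0.00305), or 1.71-fold, and the GR iKO value was −0.34 (interval −0.73 to 0.04, limma adjusted p = 0.138). The difference of responses, 0.43 (interval −0.12 to 0.98, limma adjusted p = 0.379), was not called. Within slides, Fth1 was higher on DSS on 3 of 3 slides in each genotype (0.84 to 1.05 in Flox, 0.60 to 0.78 in GR iKO), and Ftl1 was lower on 3 of 3 in Flox (−1.15 to −0.31). Ferritin genes have many processed copies in the genome, so a probe may also bind their transcripts.

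Hmox1, which opens the heme ring and releases its iron, had the largest DSS difference of the 10 genes in both genotypes. It was at −0.88, −0.60, −0.34 and −0.44 in Flox_ctrl and 1.43, 1.54 and 2.10 in Flox_DSS. It was at −0.79, −0.75, −0.77 and −0.83 in GR iKO_ctrl and 2.65, 1.75 and 2.63 in GR iKO_DSS. DSS and water mice did not overlap in either genotype, while the genotypes overlapped under each treatment. Hmox1 rose by 2.26 in Flox (SE 0.23, limma adjusted p = 9.26e-06), or 4.79-fold, which is −0.10 on the spike-in scale, and by 3.13 in GR iKO (SE 0.23, limma adjusted p = 2.22e-06), or 8.74-fold, in which the spike-in scale kept the sign. The GR iKO response was larger by 0.87 (interval 0.17 to 1.56), a difference that was not called after adjustment (unadjusted p = 0.0188 and adjusted p = 0.172 in limma).

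Within slides Hmox1 was higher on DSS on 3 of 3 slides in Flox (2.14 to 2.55) and in GR iKO (2.52 to 3.46), and on DSS it was higher in GR iKO on 2 of 2 (0.32 and 0.53). Macrophages, which break down heme from aged red cells, were followed by 12 markers. The mean log2 level of these markers was 0.75 to 1.50 above water in Flox_DSS and 1.11 to 1.92 in GR iKO_DSS. In Flox 8 of 12 were called higher with DSS (27.4% of all genes were) and in GR iKO 11 of 12 (24.5%). Of those, 0 in Flox and 11 in GR iKO stayed above 0 on the spike-in scale. Neutrophil markers were 3.92 to 4.77 above water in Flox_DSS and 5.73 to 7.65 in GR iKO_DSS, and all 8 called in Flox and all 10 called in GR iKO stayed above 0 with spike-in scaling. Of 11 red cell markers 4 were testable, and 0 were called by limma in either response (smallest adjusted p = 0.157 in Flox and 0.188 in GR iKO). Their mean level ran from −1.94 to 1.19 against water within the water groups, from 0.29 to 2.10 in Flox_DSS and from −0.19 to 2.15 in GR iKO_DSS. The part of these cells in the Hmox1 values was not tested.

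**Figure D3:**
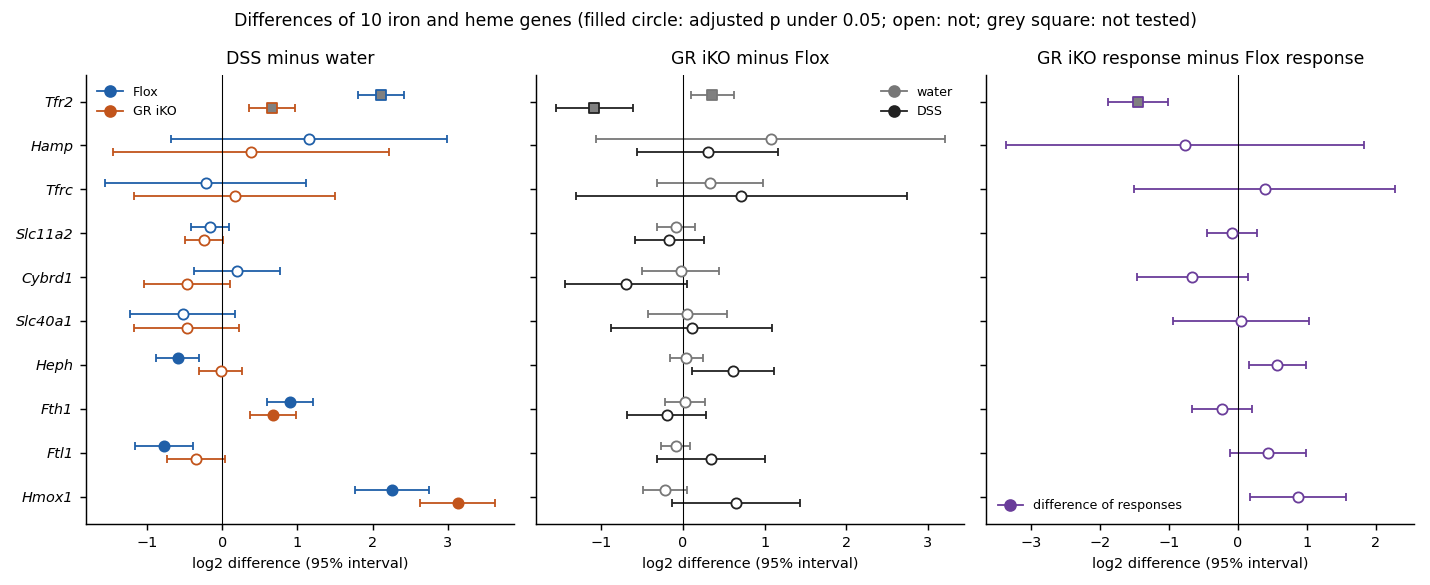
Log2 differences with 95% intervals for the 10 genes in 3 panels: DSS minus water in each genotype, GR iKO minus Flox under each treatment, and the GR iKO response minus the Flox response. Filled points passed a limma adjusted p under 0.05, open points did not, and grey squares mark Tfr2, which was not tested. The intervals drawn for Tfr2 carry no test, since it was chosen by these values. Hmox1 and Fth1 were called higher with DSS in both genotypes and Heph and Ftl1 lower in Flox, on the percentile scale, and with spike-in scaling Hmox1 in Flox and Fth1 in both turn to −0.10, −1.46 and −0.28.

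Of the 9 genes other than Tfr2, 4 were called with DSS in Flox, against 54.3% of all 15540 genes tested. Higher were 2, Hmox1 and Fth1 (27.4% of all genes were), and 2 lower, Heph and Ftl1 (26.9%), with a median difference of −0.16 against −0.03 over all genes. Their groups did not overlap in the same 4 genes, against 59.9% of all genes. In GR iKO 2 of 9 were called, against 47.1% of all genes. Both were higher, Hmox1 and Fth1 (24.5% of all genes were), and 0 were lower (22.6%), with a median of −0.02 against 0.00. The groups did not overlap in 3 of 9, Slc11a2, Fth1 and Hmox1, against 49.2%. In both genotypes the share called among the 9 was below that among all genes, but 9 genes are few. Leaving out each array gave 2 to 4 called in GR iKO, and a difference in share was not tested.

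Between genotypes 0 of the 9 were called. On water, 0.00644% of all genes were called by limma and the groups did not overlap in 0 of 9, against 2.38% of all genes, and 0 of 9 had an unadjusted p under 0.05. On DSS, 0.0% of all genes were called, 1 of 9 (Heph) had groups that did not overlap, against 24.3%, and the same gene alone had an unadjusted limma p under 0.05. For the difference of the responses, 0.103% of all genes were called, and 2 of 9, Heph and Hmox1, had an unadjusted limma p under 0.05. Over all probes 898 of 29522 had one on water, 4794 of 29523 on DSS and 5672 of 29523 for the difference of responses. With 3 mice a group on DSS these comparisons had wide intervals, up to −1.31 to 2.74 for Tfrc.

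The wider pathway was followed through 85 other genes in 9 lists, of which 83 were tested. On the percentile scale 26 rose and 30 fell with DSS in Flox, and 31 rose and 25 fell in GR iKO, so that 67.5% were called in each genotype. Of all genes 54.3% were called in Flox (27.4% higher and 26.9% lower) and 47.1% in GR iKO (24.5% and 22.6%), and the counts of the lists that follow stand against these shares, with no test of a list. The median difference was −0.12 in Flox and 0.00 in GR iKO. With spike-in scaling 7 of the 26 and 20 of the 31 stayed above 0. None of the 83 was called by limma between genotypes or for the difference of responses. At an unadjusted limma p under 0.05 there were 4 on water, 16 on DSS and 20 for the difference of responses. Over all probes there were 898 of 29522, 4794 of 29523 and 5672 of 29523 in turn.

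In the list of transferrins, siderophore capture and ferroxidases 5 of 5 rose in Flox (median 2.64) and 4 of 5 in GR iKO (median 3.51), of which 3 and 4 stayed above 0 with spike-in scaling. Lcn2, which binds bacterial siderophores, was at −6.17 to −5.21 in Flox_ctrl and −1.52 to −0.15 in Flox_DSS, and at −6.20 to −5.21 and −0.87 to 2.64 in the GR iKO groups. It rose by 4.98 (SE 0.64) in Flox and 6.53 (SE 0.64) in GR iKO. Ltf, the lactoferrin of neutrophil granules and of secretions, which is also among the neutrophil markers, rose by 4.02 (SE 0.54) in Flox. The 4 GR iKO_ctrl arrays had it below background, and it was at least 184-fold higher in GR iKO_DSS, with levels of 0.09 to 2.50. Cp, a circulating ferroxidase, rose by 2.64 (SE 0.23) and 3.51 (SE 0.23), and Slc22a17, a lipocalin 2 receptor, by 1.88 and 1.05.

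Among 8 reductases and metal importers, 4 rose and 1 fell in Flox, and 4 rose and 2 fell in GR iKO. Steap4, a metalloreductase induced in inflammation, rose by 4.53 (SE 0.39) and 4.21 (SE 0.39). Slc11a1, the phagosomal metal transporter NRAMP1, rose by 1.04 (SE 0.32) and 2.24 (SE 0.32), Slc39a14 (ZIP14), an importer of unbound iron, by 1.08 and 1.75, and Steap2 by 1.02 and 1.45. On the spike-in scale Steap4 alone stayed above 0 in Flox and all 4 in GR iKO.

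Of 18 genes that control hepcidin, 7 rose and 6 fell in Flox, and 6 rose and 3 fell in GR iKO, and 1 and 3 of those that rose stayed above 0 on the spike-in scale. Il6, the cytokine that induces hepcidin, was below background on all 8 water arrays and at least 57.8-fold higher in Flox_DSS and at least 134-fold higher in GR iKO_DSS. Tmprss6, a protease that holds hepcidin down, was likewise called higher in both and was at least 2.82-fold higher in Flox_DSS and at least 1.04-fold higher in GR iKO_DSS, where 1 of 3 mice had it above background, as did none on water. Bmp2, an inducing ligand, fell by 1.97 in Flox (SE 0.42, limma adjusted p = 0.00198), with −0.44 (limma adjusted p = 0.429) in GR iKO. Erfe, the erythroid hormone that blocks such ligands, fell by 2.77 in Flox (SE 0.39), with −0.96 (limma adjusted p = 0.0626) in GR iKO.

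Of 9 heme synthesis genes 0 rose and 5 fell in Flox, and 1 rose and 5 fell in GR iKO. Uros fell by 0.88 (SE 0.14) and by 1.17 (SE 0.14), Cpox by 0.76 and 0.88, and Urod by 0.30 and 0.62, while Alas1, the first enzyme of the route, rose by 0.98 (SE 0.18) in GR iKO, with 0.45 (limma adjusted p = 0.0523) in Flox. Of 13 genes for mitochondrial iron and iron-sulfur clusters 3 rose and 7 fell in Flox, and 3 rose and 8 fell in GR iKO. The cochaperone Hscb fell by 1.26 and 1.53 and the transporter Abcb8 by 1.00 and 1.04, while the scaffold Iscu rose by 0.78 and 0.51 (below 0 in both with spike-in scaling). The 4 genes that load or turn over ferritin had 0 that rose. Ncoa4, the receptor for ferritin breakdown, fell by 0.46 and 0.67, the iron chaperone Pcbp2 by 0.47 and 0.55, and Pcbp1 by 0.38 in Flox, with −0.22 (limma adjusted p = 0.166) in GR iKO.

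The list of heme breakdown, scavenging and transport, 15 genes, held 6 that rose and 4 that fell in Flox and 7 and 3 in GR iKO. The acute-phase scavengers of hemoglobin and heme were among the widest changes: Hp rose by 8.18 (SE 0.31) and 7.02 (SE 0.31) and Hpx by 3.69 (SE 0.57) and 2.20 (SE 0.57). Hp was at −2.35 to −1.09 in Flox_ctrl and 5.99 to 6.96 in Flox_DSS. Cd163, the macrophage receptor for haptoglobin-bound hemoglobin, rose by 1.77 and 1.89 (below 0 in Flox with spike-in scaling), and the heme and folate carrier Slc46a1 fell by 1.95 and fell by 1.85 in turn.

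Of 5 genes for iron and oxygen sensing, 0 rose and 2 fell in Flox and 2 rose and 1 fell in GR iKO. The iron regulatory protein Aco1 fell by 0.90 (SE 0.15) and by 0.71 (SE 0.15), and Ireb2 fell by 0.46 in Flox, with −0.29 (limma adjusted p = 0.0858) in GR iKO. Hif1a, a hypoxia-inducible factor, rose by 1.39 (SE 0.27) in GR iKO, with 0.35 (limma adjusted p = 0.295) in Flox, and Fbxl5 rose by 0.89 in GR iKO (below 0 with spike-in scaling), with 0.46 (limma adjusted p = 0.114) in Flox. Of 6 antioxidant genes 1 rose and 2 fell in Flox and 4 rose and 1 fell in GR iKO. Slc7a11, the cystine importer, rose by 2.59 (SE 0.60) in GR iKO, with −0.67 (limma adjusted p = 0.373) in Flox. Txnrd1 rose by 1.24 in GR iKO, with 0.31 (limma adjusted p = 0.182) in Flox, Srxn1 rose by 0.64 and 0.81 (below 0 in both with spike-in scaling), and Nqo1 fell by 1.70 and by 1.88.

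**Figure D4:**
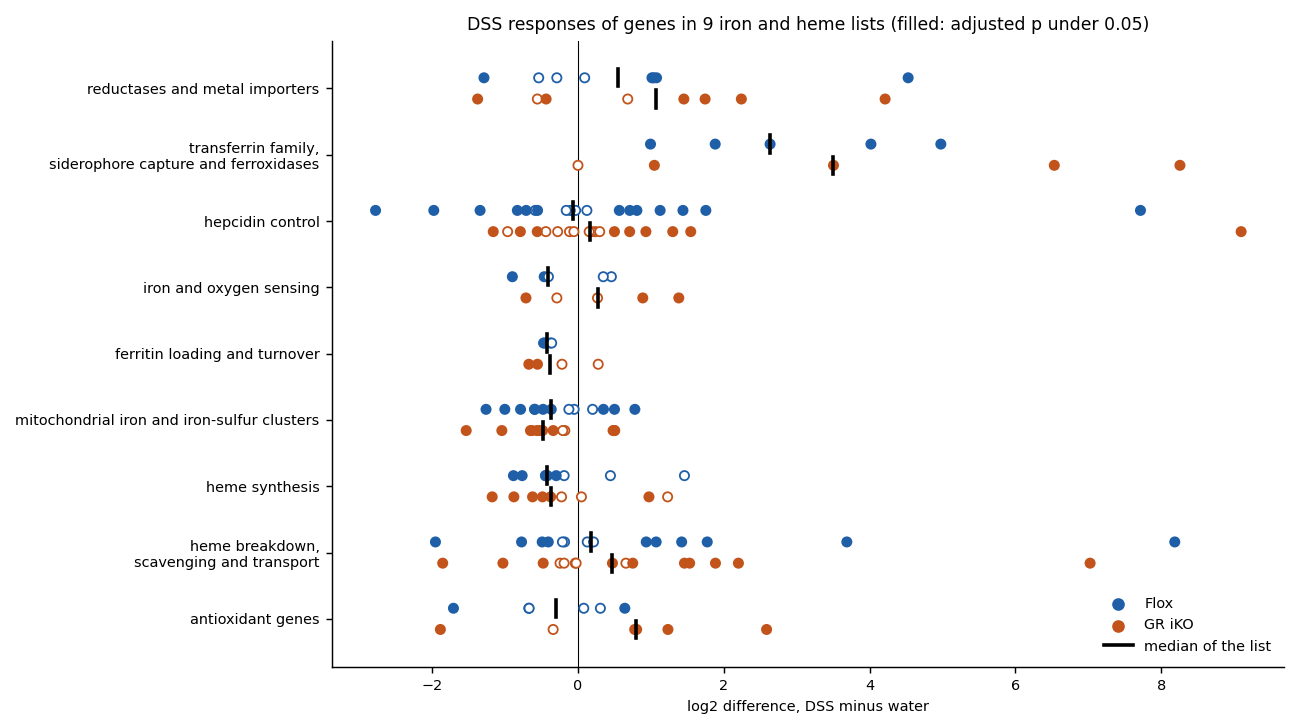
Log2 difference between DSS and water for each tested gene of 9 iron and heme pathway lists, in Flox and in GR iKO, with filled points called at a limma adjusted p under 0.05 and a black bar at the list's median. The capture and ferroxidase list has the highest medians, 2.64 and 3.51, and heme synthesis lies mostly below 0 (medians −0.42 and −0.37), on the percentile scale. Spike-in scaling lowers every point by 2.36 in Flox and 0.96 in GR iKO, which leaves 7 of 26 and 20 of 31 called rises above 0.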

How the data were processed

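The authors hybridised 500 ng of Cy3-labelled total RNA per mouse to Agilent whole mouse genome 4x44K arrays. The deposited scanner files, made with Feature Extraction 12.0.0.7, hold intensity per spot, background-corrected by that software. A second table deposited by the authors holds log2 values on an unstated scale, with the same median, 6.05, in every column and r of at least 0.9988 with the log2 processed signal. The labels' processing notes also name Partek 6.6, with no role. The study's array statistics were not used here.

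Of 45018 spots, 1639 control spots and spots marked as outliers were left out, spots of a probe were averaged and the array's 75th percentile was subtracted on the log2 scale. Of 41174 probes, 28223 were named by RefSeq accession. The 29523 well above background on at least 3 of 14 arrays were tested with limma 3.58.1 (R 4.3.3). DSS responses and their difference were fitted over 14 arrays, genotype on water over 8 and on DSS over 6, with Benjamini-Hochberg adjustment. A gene was measured by its brightest tested probe. Genes were named as all members, up to 4 called genes per pathway list with the largest DSS change, and the 5 most like Tfr2. One gene so named is not reported here. "At least" folds are against the lowest signal well above background. Members, lists and tests were chosen with earlier results of these data known. Alternatives were other background correction and normalization, spike-in scaling, filters, slide and replicate blocks, array weights, other sample sets and leaving out each array. As the files hold no mean signal, normexp used the median signal. Well above background were 62.6 to 71.3% of probes per array, none was saturated, and the number of arrays limits the precision. The p-values measure the spread between mice. For DSS responses and their difference that spread is 1 value per probe, shared by all groups. The median SD per probe was 0.18 in Flox_ctrl, 0.17 in GR iKO_ctrl, 0.26 in Flox_DSS and 0.34 in GR iKO_DSS.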

Additional observations from a re-analysis of the deposited data

Results flagged for a closer look

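Of 26 groups of 4 water mice checked over the tested probes of the 10 genes, 2 held a mouse far from the others, and about 1 in 20 such groups is marked by chance. In both it was Flox_ctrl replicate 2. Its Fth1 level was 7.51 against 7.77 to 7.81 in the other 3 mice, and its Ftl1 level was 5.61 against 5.48 to 5.49.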

How the results depend on the processing

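Over 25 alternatives, Heph and Ftl1 in Flox and Hmox1 in GR iKO were called in 25, Hmox1 in Flox and Fth1 in GR iKO in 24, and Fth1 in Flox in 23. Fth1 in Flox was 0.45 (limma adjusted p = 0.0610) after quantile normalization and 0.46 (limma adjusted p = 0.0584) in the deposited log2 table. With spike-in scaling, 7 of the 9 genes were called in Flox (0 higher), 6 in GR iKO (1 higher), 3 between genotypes on DSS (all higher) and 6 for the difference of responses (all higher). Directions that turned there, for values called on either scale and for Tfr2, were Slc11a2 (1.32 for the difference of responses, and −2.11 and −0.95 for the DSS differences of a dimmer probe), Cybrd1 in Flox (−2.17), Tfr2 (−0.26 in Flox, −0.30 in GR iKO, 0.14 between genotypes on DSS), Fth1 (−1.46, −0.28 and 1.18) and Hmox1 in Flox (−0.10). Called on neither scale, the following also turned: Hamp (−1.21, −0.57 and 0.64 for the difference of responses), Tfrc in GR iKO (−0.79), dimmer probes of Slc11a2 and Heph, Cybrd1 and Slc11a2 and Fth1 between genotypes on DSS (0.54, 1.06 and 1.03), the Cybrd1 difference of responses (0.74), and Slc40a1, Heph and Fth1 on water (−0.12, −0.13 and −0.15). Relative to the median of all probes these values did not move, since the scaling shifts all probes of an array alike, so this is no check of them. A spread shared over 14 arrays called 1 gene between genotypes on DSS (Heph 0.61, limma adjusted p = 0.0187), and array quality weights called 2 for the difference of responses (Heph 0.70, limma adjusted p = 0.0278, and Hmox1 1.25, limma adjusted p = 0.0211). The cause was not tested.

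Leaving out each array gave 4 to 4 called in Flox, 2 to 4 in GR iKO, 0 to 0 between genotypes on water and on DSS, and 0 to 1 for the difference of responses. Without GR iKO_DSS replicate 3, 4 were called in GR iKO, with Tfrc at 1.21 (limma adjusted p = 0.00962) and Cybrd1 at −0.73 (limma adjusted p = 0.0383) added, and the difference of responses was called for Hmox1 (1.16, limma adjusted p = 0.0272). Slc40a1 in GR iKO was −0.85 (limma adjusted p = 0.0357) without GR iKO_DSS replicate 4 and −0.08 without replicate 1.

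For Tfr2 normexp with quantile normalization gave 0.68 in Flox, 0.16 in GR iKO, 0.08 on water, −0.44 on DSS and −0.52 for the difference of responses. Quantile normalization and the deposited table each gave 0.48 in GR iKO, and spike-in scaling −0.04 for the difference of responses and 0.18 on water. A dim probe such as this one is limited by its signal over background. Over all probes, the main count for the difference of responses was 33, against 1 with the replicate block, 0 with no filter, 142 in the deposited table, 0 with the slide block or separate weights per treatment, 172 after quantile normalization, 279 with a filter on all 14 arrays, 531 after normexp, 2956 with array weights and 18759 with spike-in scaling. Leaving out 1 array gave 0 to 2221, with 2221 without Flox_DSS replicate 4, 2057 without GR iKO_DSS replicate 3, 324 without GR iKO_DSS replicate 4, 100 without Flox_DSS replicate 1, 31 without GR iKO_DSS replicate 1 and at most 2 without any other. Between genotypes on DSS it was 0 (4794 at an unadjusted limma p under 0.05), against 3903 with the shared spread.

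The samples were not treated as paired by replicate number. The 18 same-number pairs of arrays had correlations of deviations of −0.227 to 0.310 (median 0.099). The median was 0.094 for same-slide pairs and −0.029 for pairs that shared neither. These values do not settle whether equal numbers mark pairs. With the replicate block the calls among the 9 genes were 4, 2, 0, 0 and 0, as without it, and the Tfr2 differences were 2.06 and 0.68.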

Other observations

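Some pathway genes had wider DSS responses in one genotype than in the other without being called after adjustment. The GR iKO response less the Flox response was 4.24 for Ltf (limma adjusted p = 0.0550), 3.26 for Slc7a11 (limma adjusted p = 0.0872), 1.81 for Erfe (limma adjusted p = 0.115) and 1.74 for Spic, a transcription factor of heme-handling macrophages (limma adjusted p = 0.0964). Id1, a BMP target, had 1.01 (SE 0.18, limma adjusted p = 0.0550), with a DSS difference of −0.71 in Flox and +0.30 in GR iKO. Transferrin, Trf, was 1.00 higher on DSS in Flox and 0.00 in GR iKO, with a difference of responses of −0.99 (limma adjusted p = 0.234). These values are on the percentile scale. The value for Ltf includes GR iKO_ctrl readings that were below background on every array, so its size is uncertain. Spike-in scaling moves the median of all probes in this comparison from 0.03 to 1.43.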
